A study of Mus musculus with 2 samples.

Results

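Chemokine genes of the gut epithelium were followed through 2 single-cell libraries of mouse ileum. The 7 genes were Ccl25, Ccl6, Ccl9, Ccl20, Ccl28, Cxcl16 and Cx3cl1, chosen by their symbols, each of which was carried by 1 of the 27998 rows of the count matrices, and all 7 were detected in both libraries. The libraries were made from enterocyte preparations of the ileum of C57BL/6 mice aged 8 weeks, 1 from wild type (WT) mice and 1 from mice lacking the TIPE0 gene, Tnfaip8 (Tipe0-/-). The cells of 3 mice were pooled in each library, so each genotype was 1 sample, no test of genotype was possible, and the intervals given here cover counting error only. The epithelium was compared without injury, and the study asked with these libraries how TIPE0 affects epithelial differentiation.

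Chemokines are small secreted or membrane-bound proteins that steer leukocytes through receptors on the leukocyte surface. In the small intestine CCL25 draws T cells and IgA plasma cells that carry CCR9, CCL28 acts through CCR10 and CCR3, CCL20 draws cells with CCR6 to lymphoid follicles, and CXCL16 and CX3CL1 are made as membrane proteins that can be shed, with the receptors CXCR6 and CX3CR1. CCL6 and CCL9 are rodent CC chemokines, and CCL9 acts through CCR1.

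The chemokine subfamilies are named for the spacing of the first cysteines of the mature protein, and the coding sequence around these cysteines shows how the 7 genes differ. Each stretch below is read 5′ to 3′ on the coding strand of the first annotated transcript (GENCODE vM21, build GRCm38), with the codons of the first and second of these cysteines in capitals.
Ccl25: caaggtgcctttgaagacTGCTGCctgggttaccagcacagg
Ccl28: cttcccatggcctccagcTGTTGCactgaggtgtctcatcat
Ccl20: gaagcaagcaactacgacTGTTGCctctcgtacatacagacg
Ccl6: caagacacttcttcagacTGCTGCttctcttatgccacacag
Ccl9: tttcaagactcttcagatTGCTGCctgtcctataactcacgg
Cxcl16: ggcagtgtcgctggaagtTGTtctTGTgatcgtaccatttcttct
Cx3cl1: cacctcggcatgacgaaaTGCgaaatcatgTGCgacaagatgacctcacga
The cysteine codons were adjacent in the 5 CC genes, separated by 1 codon in Cxcl16 and by 3 codons in Cx3cl1. The motifs lay in coding exon sequence at chr8:4353897-4353902 (Ccl25, plus strand, exon 3 of 6), chr13:119645892-119645897 (Ccl28, plus strand, exon 2 of 3) and chr1:83117813-83117818 (Ccl20, plus strand, exon 2 of 3). Those of Ccl6 at chr11:83589386-83589391 and Ccl9 at chr11:83575926-83575931 were both on the minus strand in exon 3 of 4. The remaining motifs were at chr11:70459127-70459135 (Cxcl16, minus strand, exon 2 of 5) and chr8:94778051-94778065 (Cx3cl1, plus strand, exon 2 of 3). The coding sequence ran from 102 codons in Ccl20 to 246 in Cxcl16 and 395 in Cx3cl1, the pair that also encodes a membrane anchor.

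The WT library held 3402 cells and the Tipe0-/- library 2006, with medians of 7760 and 7307.5 UMIs (unique molecular identifiers, each standing for 1 captured transcript) and of 8.06% and 11.0% mitochondrial UMIs per cell. 9 cell barcodes occurred in both. Tnfaip8 had 372 UMIs in WT and 57 in Tipe0-/-, or 9.76 and 2.39 CPM (counts per 1000000 UMIs of the library or class). The median log2 ratio of Tipe0-/- over WT was 0.15 over the 11665 genes with at least 50 UMIs, and ratios are read against it. Cells formed 14 clusters without use of chemokine or receptor genes: 8 classes could be named from marker genes, and 3 clusters, led by Dtl, Slc40a1 and Lrg1, could not and are called by these genes. The labels say enterocyte, while goblet-like, Paneth-like, tuft-like and lymphocyte-like cells were also present, so levels were taken within classes. In sums over a whole library, fewer cells of a type and less RNA per cell cannot be told apart. To compare shares of cells at 1 depth, each cell was first thinned to 3000 UMIs.

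Over whole libraries no chemokine differed by 1.5-fold or more from the median of all genes. Ccl6 was the most abundant, at 308.2 CPM in WT and 329.1 CPM in Tipe0-/-, followed by Ccl25 at 172.7 and 180.9 CPM. Ccl9, Cx3cl1 and Ccl28 formed a middle group between 24.2 and 37.9 CPM in either library. Ccl20 and Cxcl16 were rare, at 2.68 and 2.65 CPM in WT and 3.18 and 2.43 CPM in Tipe0-/-. Each captured transcript gives 1 tag at its 3′ end whatever its length, so these levels are read as transcript numbers. In the comparison of whole libraries 4.23% of all genes were at least 1.5-fold above the median ratio and 6.9% at least 1.5-fold below it, against 0 of the 7 chemokines in either direction. The log2 ratios ran from -0.21 for Cx3cl1 (interval -0.36 to -0.06) to 0.25 for Ccl20 (interval -0.20 to 0.69).

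Most of the chemokines differed between classes far more than between libraries. Ccl25, Cx3cl1, Cxcl16 and Ccl20 were highest in enterocyte-like cells among the 6 named classes compared, Ccl6 and Ccl9 in goblet-like cells, and Ccl28 in cycling-like cells, and this held in both libraries for 7 of 7. Among all genes the highest of 6 named classes was the same in both libraries for 61.8%. For Ccl28 the first place carried little information, since its level in cycling-like cells was only 1.01 times the next in WT and 1.16 times the next in Tipe0-/-. With variable genes chosen by vst it was highest in tuft-like cells in WT and lymphocyte-like cells in Tipe0-/-, with 20 principal components in tuft-like and cycling-like cells, and with each cell named by its own markers in lymphocyte-like cells in both, so 6 of the 7 places were the same in both libraries in the first and second of these settings. Ccl20 led in Tipe0-/- by only 1.17 times the next class, with overlapping counting intervals. The unnamed Lrg1 cluster was higher there, at 8.71 CPM from 4 UMIs. In WT, Cxcl16 was at 10.8 CPM in the 27 enteroendocrine-like cells, a class outside the 6, with an interval overlapping that of enterocyte-like cells.

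**Figure D1:**
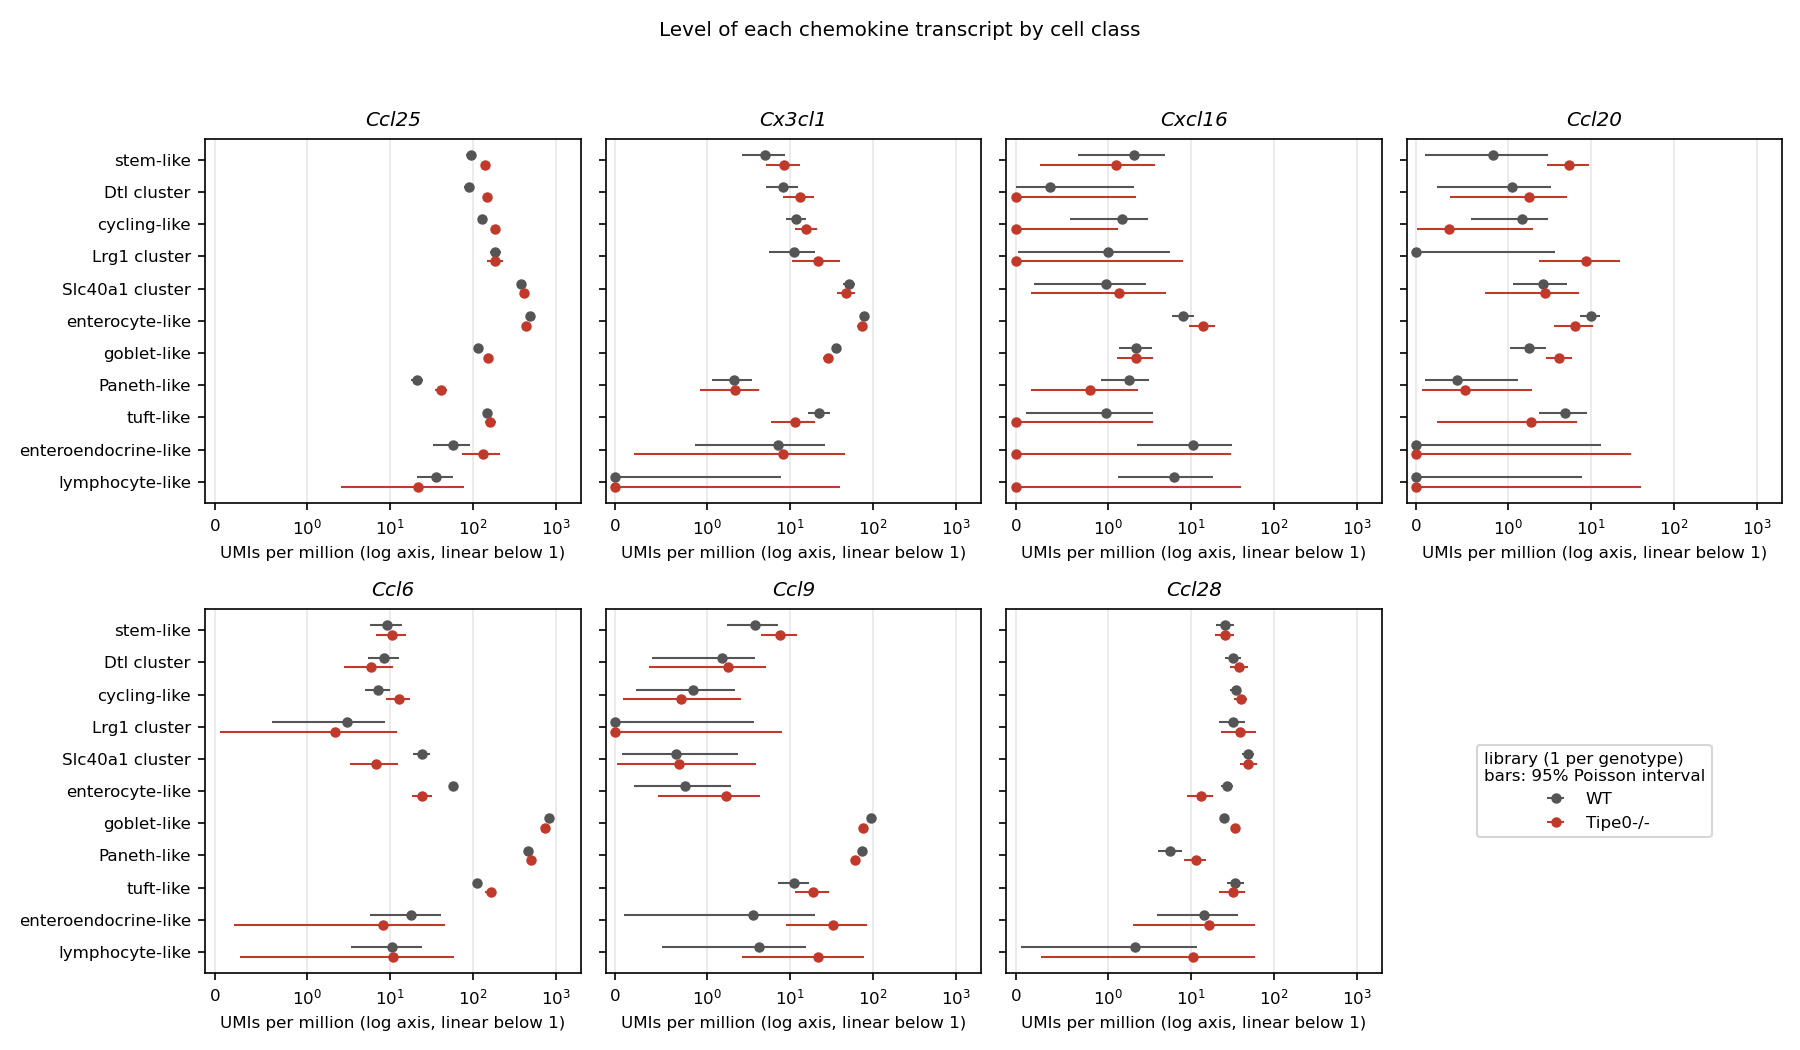
Level of each chemokine transcript (x axis, CPM on a log axis that is linear below 1) in 11 cell classes or unnamed clusters (y axis), as points with 95% Poisson intervals, grey for WT and red for Tipe0-/-. Ccl25 peaks in enterocyte-like cells at 485.5 and 435.1 CPM, Ccl6 and Ccl9 stand out in goblet-like and Paneth-like cells, and Ccl28 is spread over most classes.

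Ccl25 (ENSMUSG00000023235, chr8:4325210-4360020, plus strand), the ligand of CCR9, had its highest level in enterocyte-like cells but was not confined to them. In enterocyte-like cells it reached 485.5 CPM in WT (interval 466.9 to 504.6) and 435.1 CPM in Tipe0-/- (408.9 to 462.6). A UMI was found in 70.6% and 65.1% of these cells, against 6.67% and 5.88% of lymphocyte-like cells. Median depths before thinning were 6698 and 5774 UMIs in enterocyte-like and 4422 and 4315 UMIs in lymphocyte-like cells. The next level was that of the Slc40a1 cluster, at 383.7 and 410.1 CPM, below enterocyte-like cells in WT beyond the counting intervals and not separable from them in Tipe0-/-. The Lrg1 cluster held 187.6 and 187.3 CPM, and Paneth-like cells the lowest WT level of all classes.

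The distribution of Ccl25 over classes was flatter in the Tipe0-/- library. In the unnamed cluster led by Dtl, a DNA replication gene, Ccl25 was at 90.4 CPM in WT and 149.5 CPM in Tipe0-/-, a log2 ratio of 0.73 (0.47 to 0.99) against a median of 0.05 for the genes of that cluster. Of all genes there, 6.05% were at least 1.5-fold above the median ratio, and Ccl25 was among them. Lgr5-expressing stem-like cells held 95.5 and 140.0 CPM, a log2 ratio of 0.55 (0.31 to 0.80) against a median of 0.04. Cycling-like cells held 128.2 and 184.6 CPM, a log2 ratio of 0.53 (0.35 to 0.70) against 0.07. In Paneth-like cells 142 and 155 UMIs gave 21.2 and 41.5 CPM, a log2 ratio of 0.97 (0.63 to 1.31) against 0.48, but with each cell named by its own markers it was 0.59 (0.28 to 0.89) against 0.39.

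In goblet-like cells Ccl25 was at 116.2 and 150.9 CPM, a log2 ratio of 0.38 (0.26 to 0.50) against 0.09, but with variable genes chosen by vst it was 0.070 and its interval included the class median.

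In enterocyte-like cells the ratio went the other way, at -0.16 (-0.26 to -0.05) against a median of 0.14. With the villus bins described below weighted equally, it lay outside this interval, as given in the last section. Enterocyte-like cells held 39.0% of all Ccl25 UMIs of the WT library and 23.7% of those of the Tipe0-/- library, and stem-like cells 3.48% and 7.7%. Goblet-like cells held 16.7% and 27.0%, which in Tipe0-/- was more than enterocyte-like cells. These shares also carry the size of the classes, with 615 of 3402 and 301 of 2006 cells enterocyte-like and 8.64% and 12.2% of cells stem-like. The goblet-like class held 735 and 515 cells. The 18 enterocyte markers summed to 236.9 CPM in WT and 193.4 CPM in Tipe0-/- stem-like cells and to 190.8 and 201.3 CPM in the Dtl cluster. They summed to 253.1 and 299.0 CPM in cycling-like cells and to 106.5 and 106.0 CPM in Paneth-like cells. In Tipe0-/- the sum was higher in cycling-like cells, slightly higher in the Dtl cluster, lower in stem-like cells and nearly the same in Paneth-like cells. The part of such transcripts in the Ccl25 result was not tested. Summed stem markers in stem-like cells were at 1610 and 1549 CPM.

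**Figure D2:**
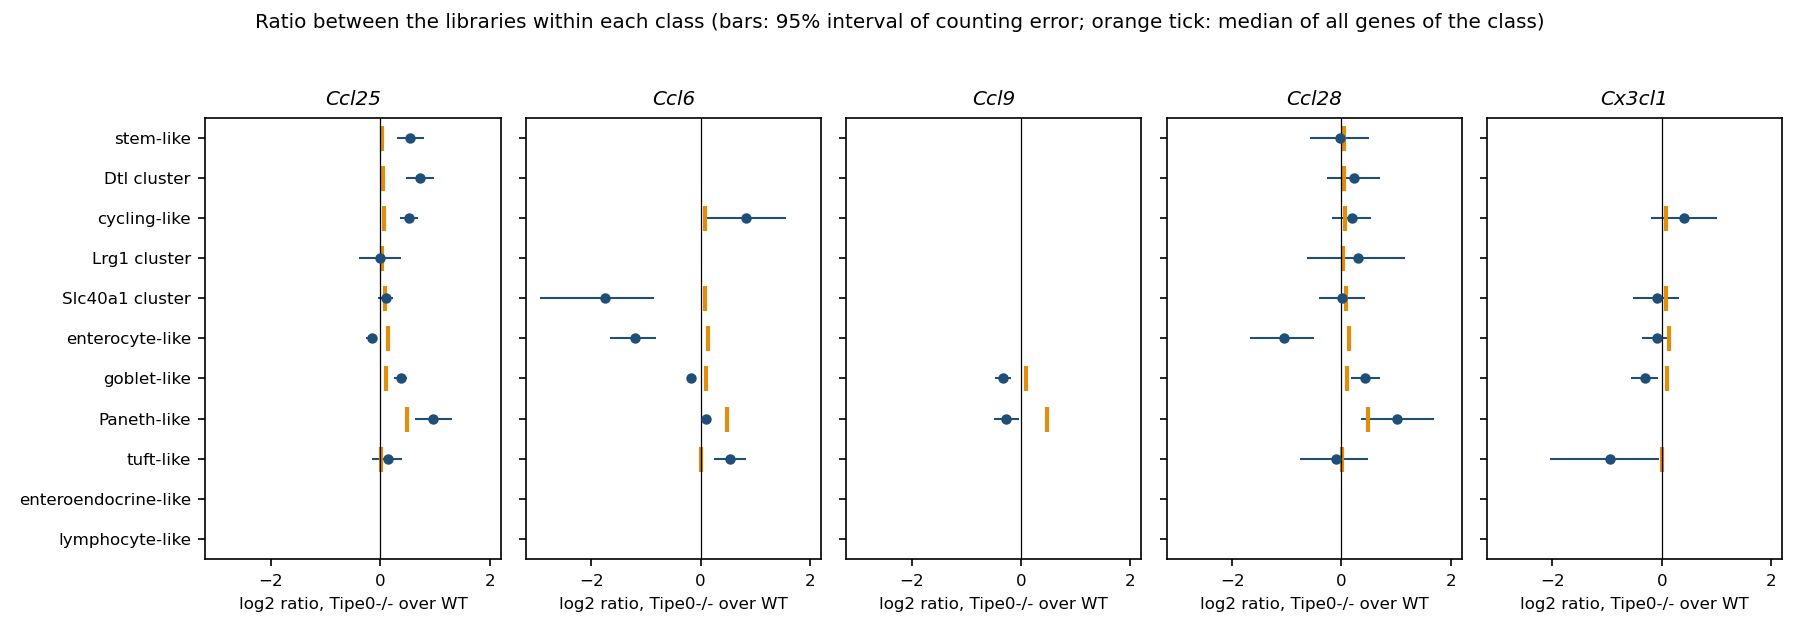
Log2 ratio of Tipe0-/- over WT (x axis) within each class (y axis) for the 5 chemokines with enough transcripts, shown where the libraries together had at least 50 UMIs, with 95% intervals of counting error and, as an orange tick, the median ratio of all genes of the class. Ccl25 lies to the right of the tick in stem-like, Dtl, cycling-like, goblet-like and Paneth-like cells and to the left of it in enterocyte-like cells, and Ccl6 and Ccl28 lie far to the left in enterocyte-like cells.

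Enterocyte-like cells were then ordered from the villus bottom to the tip by a score of known tip genes minus known bottom genes and split into 4 bins, in which 295 of 916 cells lay close to a boundary. From bottom to tip, Ccl25 was at 553.3, 565.7, 427.2 and 196.1 CPM in WT and at 548.3, 493.7, 464.1 and 258.7 CPM in Tipe0-/-. Ccl25 was thus lowest at the tip in both libraries, by 2.81-fold against the bottom in WT and 2.12-fold in Tipe0-/-. The bins held 184, 168, 144 and 119 WT cells and 45, 61, 85 and 110 Tipe0-/- cells, but bottom genes of the score differed between the libraries in these cells, with Reg3g at 52971 and 27328 CPM and Lypd8 at 6730 and 3766 CPM. By the tip genes alone the bins held 166, 158, 145 and 146 WT cells and 63, 71, 84 and 83 Tipe0-/- cells, so most of the difference in spread was lost. Ccl25 was still lowest in the tip bin by that score, by 2.35-fold in WT and 1.76-fold in Tipe0-/-. Tip genes differed between the libraries in enterocyte-like cells too, so that score was not free of such differences. Ada was at 94.6 and 195.0 CPM and Apoa1 at 5728 and 8193 CPM, while Apoa4 went the other way, at 162.1 and 142.8 CPM. The make-up of the bins changed along the axis too: the Arg2 cluster, which had more Ccl25 than the Apoa4 cluster, made up 55.4% of the bottom and 4.2% of the tip bin in WT and 73.3% and 5.45% in Tipe0-/-, and its part in the slope was not tested. Median depth also fell along the axis, from 10598 to 5053 UMIs in WT and from 8252 to 4877.5 UMIs in Tipe0-/-.

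**Figure D3:**
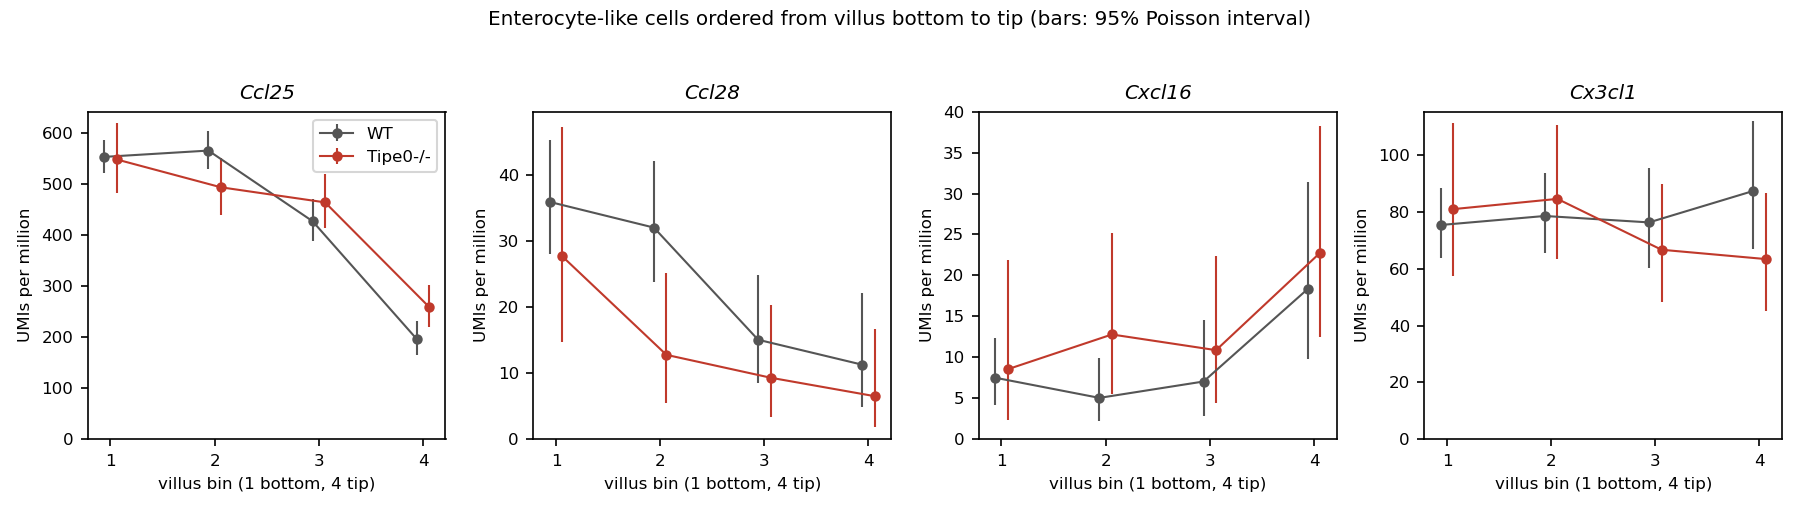
CPM, shown as UMIs per 1000000 (y axis, from 0), in enterocyte-like cells of 4 bins from villus bottom (1) to tip (4) on the x axis, with 95% Poisson intervals, grey for WT and red for Tipe0-/-. Ccl25 ends at 196.1 CPM in WT and 258.7 CPM in Tipe0-/- at the tip, Ccl28 is lower at the tip than at the bottom in both libraries, Cxcl16 is highest at the tip, and Cx3cl1 shows no slope beyond its intervals.

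Over the 14 clusters, libraries summed, the genes with the pattern most like that of Ccl25 were H2-T3, which encodes the thymus leukaemia antigen that intraepithelial T cells recognise through CD8αα, with Pearson's r of 0.99 on log2(CPM + 1), then Tkfc (0.98) and Mgat4a (0.98), chosen from 9841 genes. The clusters share libraries and depth, so these values are a description.

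Cx3cl1 (ENSMUSG00000031778, chr8:94772009-94782427, plus strand), fractalkine, was also highest in enterocyte-like cells, at 78.2 CPM in WT (70.9 to 86.1) and 73.5 CPM in Tipe0-/- (63.0 to 85.3). It was at 51.0 and 47.6 CPM in the Slc40a1 cluster, and no UMI was seen in 90 WT and 17 Tipe0-/- lymphocyte-like cells, which allows shares of cells with a UMI of up to 3.33% and 17.6% at this depth. Unlike Ccl25 it had no slope along the villus, with 75.5, 78.7, 76.4 and 87.5 CPM from bottom to tip in WT and 81.1, 84.7, 66.7 and 63.5 CPM in Tipe0-/-. In goblet-like cells the libraries held 35.1 and 28.3 CPM, a log2 ratio of -0.31 (-0.57 to -0.06), but within each of the 3 goblet-like clusters, and with vst (-0.23), the interval included the median of all genes. In tuft-like cells, the chemosensory cells of the epithelium, Cx3cl1 was at 22.5 CPM from 46 UMIs in WT and 11.3 CPM from 12 UMIs in Tipe0-/-. There 8.5% of all genes were at least 1.5-fold below the median ratio, Cx3cl1 among them. Without the 5% of cells with the highest doublet scores its log2 ratio was -0.68 (-1.99 to 0.35) in place of -0.95. Enterocyte markers in the same tuft-like cells summed to 998.5 CPM in WT and 375.7 CPM in Tipe0-/-, and their part in the result was not tested. Nr3c2, the mineralocorticoid receptor gene, was nearest to Cx3cl1 over the clusters (r 0.97), then Prkcz and Trpm4 (0.97 each).

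Cxcl16 (ENSMUSG00000018920, chr11:70453983-70459984, minus strand), the membrane-bound ligand of CXCR6, was sparse, with 101 UMIs in WT and 58 in Tipe0-/-. Enterocyte-like cells held 43 and 33 of them, or 8.12 CPM (5.88 to 10.9) and 14.02 CPM (9.65 to 19.7), a log2 ratio of 0.79. In this class 7.62% of all genes were at least 1.5-fold above the median ratio, and Cxcl16 was the 1 chemokine among them, but its interval of 0.09 to 1.48 included the class median of 0.14. Cxcl16 was higher at the villus tip than at the bottom, at 18.3 against 7.50 CPM in WT (log2 ratio 1.30, 0.10 to 2.46) and 22.8 against 8.53 CPM in Tipe0-/- (1.30, -0.25 to 3.48). The direction was thus opposite to that of Ccl25 in the same cells. In Tipe0-/- the interval of the slope included 0, while by the tip genes alone it did not (1.78, 0.23 to 3.96). In the annotation Cxcl16 overlaps Zmynd15 on the other strand.

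Ccl20 (ENSMUSG00000026166, chr1:83116766-83119167, plus strand), the CCR6 ligand, had 102 UMIs in WT and 76 in Tipe0-/-, and the 10 richest cells held 31.4% and 44.7% of them. Enterocyte-like cells held 52 and 15 UMIs (9.82 and 6.37 CPM), goblet-like cells 17 and 32 (1.79 and 4.14 CPM), and stem-like cells 2 and 13 (0.83 and 5.47 CPM). Enterocyte-like cells thus held 51.0% of Ccl20 UMIs in WT and 19.7% in Tipe0-/-, and goblet-like cells 16.7% and 42.1%. The enterocyte-like log2 ratio of -0.59 had an interval of -1.56 to 0.23, which included the class median, and the goblet-like and stem-like counts were under the 50 UMIs set for a call. After thinning, a Ccl20 UMI was found in 2.6% of WT and 0.33% of Tipe0-/- enterocyte-like cells and in 0% and 0.41% of stem-like cells, which was too shallow to compare stem-like cells. Without thinning, 2 of 294 WT and 8 of 244 Tipe0-/- stem-like cells had a UMI. The log2 ratio of the levels in stem-like cells, with 0.5 added to each UMI sum, was 2.44 (0.57 to 5.90).

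Ccl28 (ENSMUSG00000074715, chr13:119623819-119654359, plus strand), known for attracting IgA plasma cells to mucosal surfaces, had no single source. Apart from lymphocyte-like cells, with 1 UMI in each library, it ran from 5.67 CPM in WT Paneth-like cells to 49.3 CPM in the WT Slc40a1 cluster, and in the Tipe0-/- library that cluster was again highest at 49.6 CPM. Stem-like cells (26.3 and 25.7 CPM), the Dtl cluster (32.7 and 38.3 CPM), cycling-like cells (35.1 and 39.9 CPM) and tuft-like cells (34.7 and 31.9 CPM) had overlapping counting intervals in each library. Adgra3 was the gene most like it over the clusters (r 0.95), followed by 2010107G23Rik and Tjp3 (0.95 each), the last a tight junction gene.

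Enterocyte-like cells were the exception, with 146 Ccl28 UMIs in WT and 31 in Tipe0-/-. These gave 27.6 CPM (23.3 to 32.4) and 13.2 CPM (8.95 to 18.7), a log2 ratio of -1.05 (-1.67 to -0.50) against a class median of 0.14. In this class 7.41% of all genes were at least 1.5-fold below the median ratio, and with Ccl28 also Ccl6 and Ccl20 were among them, 3 of the 7 chemokines. Ccl6 moved from -1.21 to -0.63 with vst and to -0.30, inside 1.5-fold, with each cell named by its own markers. Ccl20 was inside 1.5-fold with vst (-0.32), with 20 principal components and at clustering resolutions of 0.4 and 1.2, and its reported interval included the class median. Ccl28 was lower in Tipe0-/- in both enterocyte-like clusters, at 21.2 and 9.10 CPM in the cluster led by Apoa4 and at 41.4 and 22.7 CPM in the cluster led by Arg2. From the bottom to the tip bin it went from 35.99 to 11.3 CPM in WT and from 27.7 to 6.51 CPM in Tipe0-/-, but by the tip genes alone the Tipe0-/- interval included 0 (log2 ratio -1.13, -3.36 to 0.56). In goblet-like cells Ccl28 was at 25.4 and 34.5 CPM, a log2 ratio of 0.44 (0.18 to 0.70) against 0.09, and with vst the interval included the median (0.31, -0.07 to 0.70).

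Ccl6 (ENSMUSG00000018927, chr11:83587882-83593087) and Ccl9 (ENSMUSG00000019122, chr11:83572919-83578636) are neighbours on the minus strand of chromosome 11 and were both genes of the secretory lineage. Their annotated transcripts share a longest identical stretch of 25 bases, against at most 13 for any other pair of the 7, so reads could be told apart except within short stretches. Ccl6 overlaps the noncoding gene E230016K23Rik on the other strand. The promoters, from 250 bases before to 50 after the RefSeq start (build GRCm38.p6, minus strand), are shown because the genes lie side by side and share classes, with stretches of at least 12 bases that occur in both in capitals.
Ccl6 (chr11:83593038-83593337): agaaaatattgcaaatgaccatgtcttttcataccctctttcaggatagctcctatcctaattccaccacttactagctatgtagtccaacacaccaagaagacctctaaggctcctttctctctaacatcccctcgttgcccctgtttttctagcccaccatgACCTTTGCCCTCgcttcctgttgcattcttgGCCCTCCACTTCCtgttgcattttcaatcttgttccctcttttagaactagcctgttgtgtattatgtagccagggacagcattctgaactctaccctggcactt
Ccl9 (chr11:83578587-83578886): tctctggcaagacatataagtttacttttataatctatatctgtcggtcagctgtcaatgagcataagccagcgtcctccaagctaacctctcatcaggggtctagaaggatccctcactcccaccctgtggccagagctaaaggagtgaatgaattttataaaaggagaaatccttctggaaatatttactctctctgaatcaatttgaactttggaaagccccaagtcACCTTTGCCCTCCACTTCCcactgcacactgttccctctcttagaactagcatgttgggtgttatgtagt
The shared runs of 12 and 13 bases lay apart in Ccl6. In Ccl9 they overlapped and covered 19 bases, so no stretch of 19 bases was common to both windows. TATAAA, searched on both strands, was in the Ccl9 window and not in the Ccl6 window, and 13.6% of 32851 mouse promoter windows held it. The NF-kB consensus, also searched on both strands, was in the windows of Ccl9 and Ccl20, and 4.5% of all windows held it. Windows were given for 6 of the 7 genes.

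In goblet-like cells, named after the mucus-producing goblet cells, Ccl6 was at 835.1 CPM in WT and 734.3 CPM in Tipe0-/-. In Paneth-like cells, named after the antimicrobial cells of the crypt base, it was at 467.5 and 499.7 CPM. Ccl9 was at 95.4 and 75.9 CPM in goblet-like cells and at 73.5 and 61.0 CPM in Paneth-like cells. Goblet-like cells alone held most transcripts of the pair, with 67.3% and 72.2% of Ccl6 UMIs and 62.5% and 67.5% of Ccl9 UMIs.

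The pair parted within the goblet-like class. In the goblet-like cluster led by Sval1, Ccl6 was at 2512 CPM in WT and 2337 CPM in Tipe0-/-, and 92.3% and 91.5% of cells had a UMI. Ccl9 was also highest there, at 156.1 and 110.8 CPM. In the cluster led by Creb3l1, a secretory pathway regulator, which also expressed Spdef and Dll1, Ccl6 was at 552.0 and 539.7 CPM and Ccl9 at 101.8 and 79.2 CPM. This cluster held most of the class, with 425 of 735 WT and 330 of 515 Tipe0-/- cells. In the cluster led by Zg16, Ccl6 was higher than in the Creb3l1 cluster, at 788.5 and 827.9 CPM, while Ccl9 was at only 19.7 and 16.8 CPM. Of that cluster, 25.4% of cells were among the 5% with the highest doublet scores, and it carried Ccl25 at 295.4 and 320.3 CPM.

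**Figure D4:**
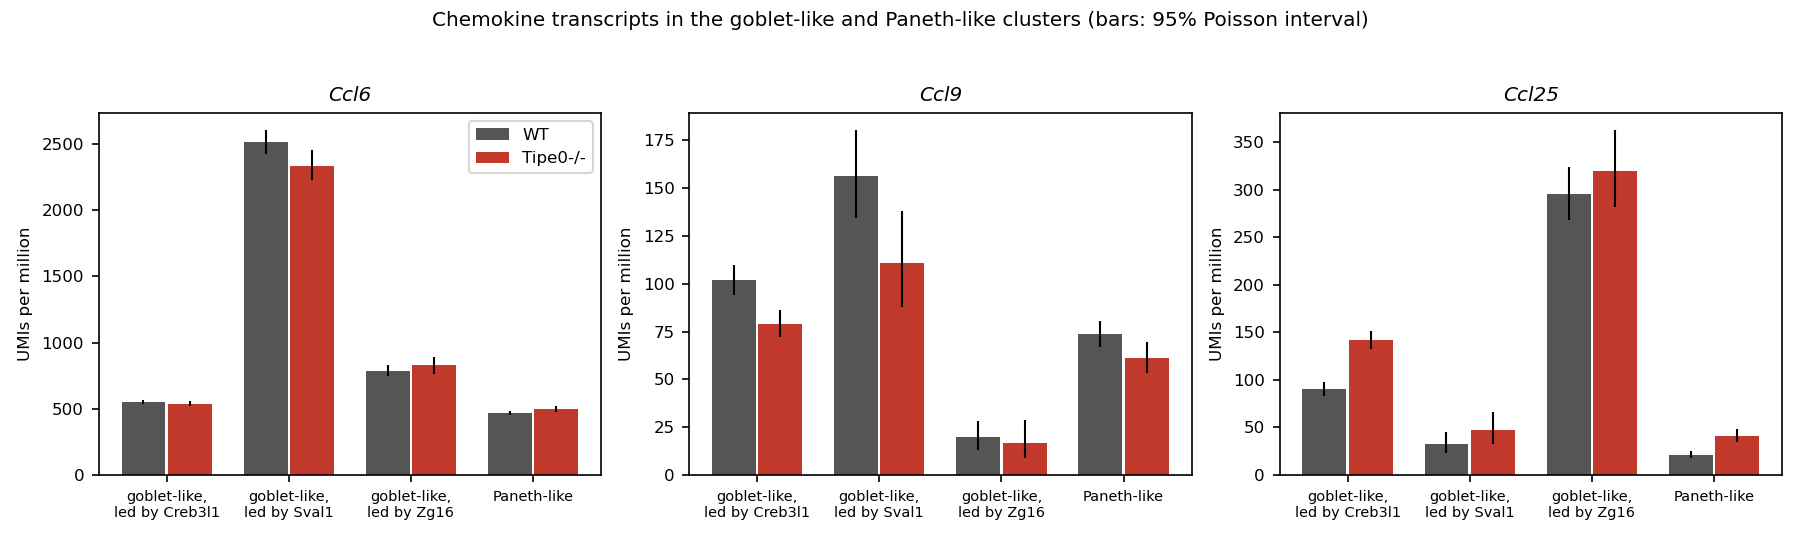
CPM, shown as UMIs per 1000000 (y axes, from 0), of Ccl6, Ccl9 and Ccl25 in the 3 goblet-like clusters and the Paneth-like cluster (x axis), with 95% Poisson intervals, grey for WT and red for Tipe0-/-. Ccl6 is highest in the Sval1 cluster at 2512 and 2337 CPM, Ccl9 is lowest in the Zg16 cluster at 19.7 and 16.8 CPM, and Ccl25 is higher in Tipe0-/- in the Creb3l1 cluster.

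Within single cells of the Creb3l1 cluster the pair was not seen together more than apart. After thinning, a Ccl9 UMI was found in 24.8% of 242 WT cells of the Creb3l1 cluster with Ccl6 and in 21.9% of 183 without, and in Tipe0-/- in 21.4% of 182 and 21.6% of 148. The intervals overlapped in both libraries, and at this depth an association could be missed. Ccl25 and Ccl9 were found together less often in WT goblet-like cells, with Ccl9 in 13.3% of 158 cells with Ccl25 (8.4 to 19.6) and in 23.9% of 577 without (20.5 to 27.6), but within the Creb3l1 cluster the intervals overlapped.

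Between the libraries, Ccl9 was lower in Tipe0-/- relative to other genes in both secretory classes, except that with vst its goblet-like log2 ratio was 0.02 and the interval included the median. In goblet-like cells the log2 ratio was -0.33 (-0.48 to -0.18) against a class median of 0.09, and the Creb3l1 (-0.36) and Sval1 (-0.49) clusters had ratios below their medians. In Paneth-like cells the log2 ratio was -0.27 (-0.50 to -0.04) while the class median was 0.48, and 6.21% of all genes were at least 1.5-fold below the median there, Ccl9 among them. Ccl6 was below the class median in both classes too, by less. Its log2 ratio was -0.19 against 0.09 in goblet-like and 0.10 against 0.48 in Paneth-like cells. The interval of Ccl6 stayed below the median under 7 of 7 and 6 of 6 alternatives. By the cluster levels given above, Ccl6 in Tipe0-/- was slightly lower in the Sval1 and Creb3l1 clusters and slightly higher in the Zg16 cluster. The Creb3l1 cluster, with the least Ccl6 of them, made up more of the goblet-like cells in Tipe0-/- than in WT. The part of this makeup in the goblet-like ratio was not tested. Paneth-like cells were also the class with the largest median ratio, with median depths of 20981.5 UMIs in WT and 26111 UMIs in Tipe0-/-. In the Creb3l1 cluster Ccl25 had a log2 ratio of 0.65 (0.50 to 0.80), while in the Sval1 and Zg16 clusters its intervals included the medians.

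Outside the secretory classes Ccl6 was at a small share of its goblet-like level, and goblet transcripts in the same cells moved with it in some cases and not in others. In enterocyte-like cells it was at 57.4 CPM in WT and 24.6 CPM in Tipe0-/- (log2 ratio -1.21, -1.65 to -0.81), which was 6.88% and 3.36% of its goblet-like level. Muc2 in the same cells was at 8.85% and 8.88% of its goblet-like level, Tff3 at 7.70% and 7.66%, and Spink4 at 4.11% and 1.86%. Agr2, Rep15, Tpsg1, Spdef, Ern2 and Pdia5 were at lower shares in Tipe0-/-, and Foxa3, Bcas1, Klk1 and Guca2a at higher ones. In the Slc40a1 cluster Ccl6 was at 24.3 CPM from 74 UMIs and 6.89 CPM from 10 UMIs, where 6.72% of all genes were at least 1.5-fold below the median ratio. There Muc2 was at 3.24% and 0.863% and Spink4 at 3.62% and 0.922% of their goblet-like levels. Tff3, Agr2, Tpsg1, Spdef, Foxa3, Bcas1, Pdia5 and Klk1 were also at lower shares in Tipe0-/- in that cluster. Guca2a (29.4% and 51.0%), Rep15 and Ern2 were at higher ones. In cycling-like cells Ccl6 had 34 and 36 UMIs, 7.18 and 12.8 CPM, where 4.43% of all genes were at least 1.5-fold above the median ratio, Ccl6 among them, but with 20 principal components the interval of its log2 ratio of 0.61 included the median. Its share of the goblet-like level there was 0.86% and 1.75%, against 1.16% and 1.14% for Muc2. Tff3 was at 1.65% and 2.32% and Spink4 at 1.78% and 2.15% of their goblet-like levels. Agr2, Rep15, Tpsg1, Spdef, Bcas1, Klk1 and Guca2a were also at higher shares in Tipe0-/-, and Foxa3, Ern2 and Pdia5 at lower ones. In tuft-like cells Ccl6 was at 114.2 and 165.3 CPM, 13.7% and 22.5% of the goblet-like level, Muc2 at 12.2% and 18.9%, and Spink4 at 11.2% and 24.2%. The other goblet markers were also at higher shares in Tipe0-/- tuft-like cells, except Ern2 (19.6% and 9.41%). The origin of these Ccl6 transcripts was not tested. Over the clusters Spink4 (r 0.98), Retnlb (0.97) and Muc2 (0.97) were nearest to Ccl6, and Mmp7 (0.96), which encodes the protease that activates mouse defensins, Hid1 and Qsox1 (0.94 each) were nearest to Ccl9.

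Receptors of these chemokines were rare. Of 9 receptor genes 1 reached 50 UMIs, Ccr9, with 73 UMIs in WT and 17 in Tipe0-/- (log2 ratio -1.40, -2.28 to -0.65), and 53.4% and 17.6% of these lay in lymphocyte-like cells. Ackr4, a scavenging receptor of CCL25, had 23 and 7 UMIs and was found in tuft-like cells, at 10.7 and 6.58 CPM, with 4.35% and 0% of its UMIs in lymphocyte-like cells and none in any other class. Cxcr6 had 23 and 5 UMIs, Ccr1 10 and 3, Ccr6 4 and 8, Cx3cr1 5 and 2, Ccr10 2 and 1, Ackr2 1 and 0, and Ccr3 none in either library. Lymphocyte-like cells made up 2.65% of the WT and 0.847% of the Tipe0-/- library, and all 10 T lymphocyte markers were detected in each, at a summed 107.5 and 21.9 CPM. The lower Ccr9 therefore came with fewer lymphocyte-like cells. Within the 90 and 17 lymphocyte-like cells Ccr9 was at 82.8 and 32.4 CPM. The parts of cell number and of level per cell were not tested.

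Of 28 other chemokines 3 reached 50 UMIs. Ccl5 was at 94.5 and 27.3 CPM (log2 ratio -1.79), Ccl4 had 122 and 5 UMIs (log2 ratio -3.80), and Ccl27a was at 4.93 and 6.07 CPM (0.30). Lymphocyte-like cells held 73.0% of the Ccl4 UMIs in WT and 0% of the 5 in Tipe0-/-, and 29.8% and 22.4% of the Ccl5 UMIs. Markers of myeloid cells summed to 39.8 and 33.4 CPM, with 15 and 12 of 15 detected, those of stromal cells to 5.19 and 5.02 CPM with Pdgfra at 0, and those of endothelium to 4.17 and 3.22 CPM with Cdh5, Kdr and Emcn at 0. The myeloid sum was led by Cd14 (557 and 278 UMIs) and Itgam (382 and 277), both spread over many classes. Csf1r had 5 and 1 UMIs, C1qa 4 and 0, and Adgre1 1 and 0.

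Genes that process the ligands and NF-kB genes had median ratios close to that of all genes, and genes for lymphocyte retention and IgA transport a lower one. Of 6 genes for shedding and cleavage, such as Adam10 and Adam17, the sheddases of CX3CL1 and CXCL16, and Dpp4, 5 were measured, with a median log2 ratio of 0.18 beside 0.15 for all genes, between -0.04 for Rhbdf1 and 0.40 for Rhbdf2, and 0 were 1.5-fold above or below the median. Of 16 NF-kB pathway genes 14 were measured, with a median of 0.14, the highest Relb at 0.40 and the lowest Nfkbiz at -0.68, from 61.6 CPM in WT to 38.4 CPM in Tipe0-/-, the 1 gene at least 1.5-fold below. Of 12 genes for lymphocyte retention and IgA transport 9 were measured, with a median of -0.16. Of these, 4 (Itgae, Itgb7, Jchain and Tnfsf13b) were at least 1.5-fold below, beside 6.9% of all genes. The extremes were Itgb7 (-1.92), an integrin of lymphocytes with 55.6% and 46.2% of its UMIs in lymphocyte-like cells, and Cdh1 (0.45), the epithelial E-cadherin that binds the CD103 integrin. Lymphocyte-like cells also held 40.6% and 7.14% of the Itgae UMIs and 45.4% and 17.1% of those of Jchain. Lymphocyte-like cells were fewer in Tipe0-/-. For Itgae, Itgb7 and Jchain, fewer cells and less RNA per cell cannot be told apart in these whole-library sums. Tnfsf13b, with 183 and 71 UMIs, had 0% of them in lymphocyte-like cells in both libraries. Pigr was at -0.11 and Il15 at 0.18, both inside 1.5-fold of the median.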

How the data were processed

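Single-cell RNASeq of 1 WT and 1 Tipe0-/- library was analysed. The authors ran Cell Ranger on 3′ v2 reads of the 10x Genomics Chromium system, with mm10 as the genome, and the deposited matrices hold raw UMI counts per gene and cell. The authors' depth equalization was not part of these values. Cells were clustered with Seurat 5.3.0 (R 4.3.3) on variable genes by mean and dispersion, 530 of 582 after chemokines, receptors and genes compared by the study had been left out. Clusters were named from marker lists (3 or more markers in at least 10% of cells and 1.5 times the share elsewhere). Doublets were scored with Scrublet in Scanpy 1.11.5, which called 15 and 3 cells, so it did not work as a caller, cells were kept, and the 5% with the highest scores were left out as an alternative.

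CPM were sums of UMIs with exact 95% Poisson intervals, ratios had exact binomial intervals, and shares had Clopper-Pearson intervals. Where no cell had a UMI, the limit given for the share was 3 counts over the number of cells. That limit is tighter than the Clopper-Pearson one. Log2 ratios of UMI sums, over all genes and for single genes, had 0.5 added to each sum. At low counts they therefore differ from the ratio of the printed CPM. All intervals cover counting error only: 1 library per genotype allowed no test and no p-value. The ratio step was tested on simulated data. Motif sequences came from GENCODE vM21 and RefSeq tables. The named genes were the 7 chemokines, Tnfaip8, for each chemokine with at least 200 UMIs the 3 most like genes over clusters, every receptor, and the highest and lowest gene of each list. Clusters, markers beside a result and further list genes were named after their values were seen. Members and lists were chosen with earlier results of these data known.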

Additional observations from a re-analysis of the deposited data

Results flagged for a closer look

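The ratio between the libraries differed between classes for 3 chemokines, by its interval lying above the median of all genes in some classes and below it in others. For Ccl25 the log2 ratio minus the class median was 0.67 in the Dtl cluster and -0.29 in enterocyte-like cells, 0.96 apart, with 5 classes above and 1 below. For Ccl28 it was 0.35 in goblet-like and -1.18 in enterocyte-like cells, 1.53 apart. For Ccl6 it was 0.76 in cycling-like cells and -1.84 in the Slc40a1 cluster, 2.61 apart. The cycling-like value came from 34 and 36 UMIs, with its interval on that side under 3 of 6 alternatives. The Slc40a1 value and the Dtl value of Ccl25 were not recomputed under alternatives. For Ccl25 the interval stayed above the median under 5 of 7 alternatives in goblet-like and 5 of 6 in Paneth-like cells. It kept its side under 6 of 6 in stem-like, cycling-like and enterocyte-like cells. Not among these were the villus bins weighted equally, which put the enterocyte-like ratio outside its counting interval, as given below. For Ccl28 the interval kept its side under 6 of 7 in goblet-like and 6 of 6 in enterocyte-like cells. With 1 library per genotype these differences were not tested.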

How the results depend on the processing

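No paired analysis was possible because each genotype had 1 library, and for the same reason no replicate could be left out. The signs of the small whole-library ratios depended on the scaling. Relative to the median of all genes, the log2 ratios were -0.087 for Ccl25, -0.060 for Ccl6, -0.21 for Ccl9, 0.018 for Ccl28 and -0.36 for Cx3cl1. With totals without mitochondrial and the 20 most abundant genes they were 0.0095 for Ccl25 and 0.037 for Ccl6. After thinning to 3000 UMIs, which weights cells equally, they were -0.059 for Ccl25, 0.037 for Ccl6, -1.19 for Ccl20, -0.080 for Ccl28 and 0.042 for Cx3cl1. Ccl6 was -0.0062 with the same class makeup in both libraries and 0.045 without lymphocyte-like cells and unnamed clusters. As the mean of log-normalized expression, Ccl6 was 0.0049, Ccl28 0.022 and Cx3cl1 -0.0080. The causes of these moves were not tested beyond what each construction shows. No direction is read from whole libraries.

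Within enterocyte-like, goblet-like, Paneth-like, tuft-like, stem-like and cycling-like cells, 150 of 161 recomputed ratios stayed within the counting interval of the reported one. The exception in direction, relative to the class median, was Ccl25 in goblet-like cells, 0.070 with variable genes chosen by vst, just under its class median of 0.09. The 4 villus bins weighted equally and the goblet-like class without the Zg16 cluster were chosen after seeing the data. In enterocyte-like cells the first gave 0.019 for Ccl25, outside its interval of -0.26 to -0.05, and -0.75 for Ccl28, inside its interval. Its score holds genes that differ between the libraries, so nothing further is read from it. By the tip genes alone, Ccl25 at the WT tip against the bottom was -1.23 in place of -1.49. With at least 200 UMIs, 64.0% of genes had the same highest class. Ccl20 and Cxcl16 are limited by depth. Ratios in the other classes, in the unnamed clusters and in single clusters of a class were not recomputed.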
